A study of Homo sapiens with 6 samples.

Results

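Genes of the epicardium, the mesothelial sheet that covers the heart, were followed in 6 RNA sequencing libraries of cardiac organoid differentiation. The set holds the 8 genes WT1, TBX18, TCF21, BNC1, BNC2, UPK3B, UPK1B and MSLN, chosen by symbol, and each matched 1 row of the 58735 genes in the deposited table. The cells are H9, an established human embryonic stem cell line, with no genetic change or agent named in the labels. The groups are 6 days of differentiation, namely day 0, day 2, day 3, day 4, day 6 and day 30, with 1 library each, and 10 organoids were taken per time point, per the labels. With 1 library per day there is no replicate check and no p-value, and every interval below covers counting error only.

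The epicardium forms from the proepicardium, a cluster of mesothelial cells near the inflow of the early heart, and its cells can undergo an epithelial-to-mesenchymal transition and give rise to cardiac fibroblasts and mural cells of the coronary vessels. WT1, TBX18 and TCF21 are the transcription factors by which this layer and its derivatives are most often recognised, and BNC1 and BNC2, the basonuclins, are zinc finger proteins found in mesothelia and other epithelia. UPK3B, UPK1B and MSLN encode surface proteins of mesothelial cells. None of the 8 genes is restricted to the epicardium: WT1 is also made in kidney and gonad, TCF21 and TBX18 in other mesenchyme, and uroplakins in urothelium.

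The levels are FPKM, reads divided by gene length and by a denominator for each library, and the reads behind each value could be recovered as whole numbers. Recovered reads per library lay between 13500887 and 15526924. All libraries carry the same cell type label of embryonic stem cell, and the pluripotency factor POU5F1 stood at 0.280 FPKM at day 30, against 561 FPKM at day 0. The cardiac troponin TNNT2 was at 14.8 FPKM at day 30. In such bulk samples, fewer cells of a type and less RNA per cell cannot be told apart.

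Of the 5 genes that were low or silent at day 0 and were called higher at day 30, BNC1 is left out here. The sequences before the starts of the other 4 are shown, and their base composition differs. They come from RefSeq on GRCh38.p14, which matched 7 of the 8 genes, at the start farthest upstream, on the strand of the gene, and end at that start or, where the gene of the deposited table begins before it, at the base before the gene. Capitals mark 3 motifs, searched on both strands. These are the letters AGATAA, which zinc finger factors of the heart such as GATA4 can bind, the E-box CAGCTG, which helix-loop-helix factors can bind, and CATTCC, which TEAD factors can bind. None of them overlapped another in these windows.
WT1: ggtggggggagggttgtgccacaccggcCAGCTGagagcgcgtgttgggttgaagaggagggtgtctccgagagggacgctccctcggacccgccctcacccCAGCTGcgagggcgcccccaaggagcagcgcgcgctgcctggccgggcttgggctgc
TCF21: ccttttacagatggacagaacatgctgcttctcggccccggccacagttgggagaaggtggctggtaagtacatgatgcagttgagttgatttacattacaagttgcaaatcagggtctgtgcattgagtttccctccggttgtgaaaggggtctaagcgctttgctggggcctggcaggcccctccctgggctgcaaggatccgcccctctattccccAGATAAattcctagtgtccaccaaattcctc
TBX18: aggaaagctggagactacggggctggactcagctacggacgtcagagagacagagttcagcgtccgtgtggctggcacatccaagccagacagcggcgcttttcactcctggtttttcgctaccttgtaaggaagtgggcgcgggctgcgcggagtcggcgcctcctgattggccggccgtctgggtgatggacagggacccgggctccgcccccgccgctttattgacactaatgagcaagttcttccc
UPK1B: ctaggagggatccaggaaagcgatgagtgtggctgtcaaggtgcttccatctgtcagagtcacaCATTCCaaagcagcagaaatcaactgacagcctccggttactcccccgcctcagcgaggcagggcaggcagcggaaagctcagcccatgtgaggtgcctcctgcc
The stretches are chr11:32435631-32435789 (minus strand) for WT1, chr6:133888863-133889112 (plus strand) for TCF21, chr6:84764599-84764848 (minus strand) for TBX18 and chr3:119173348-119173516 (plus strand) for UPK1B.

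Over the full 250 bases before the start, the ratio of observed to expected CpG was 0.616 for WT1, 0.847 for TBX18, 0.992 for BNC1 and 1.09 for BNC2, all above the median of 0.554 over 27305 RefSeq promoters. It was 0.287 for TCF21, 0.298 for UPK1B and 0.0709 for UPK3B, all below that median. The CAGCTG motif was present in 2 of the 7 matched promoters (WT1 and BNC1) and in 13.8% of all promoters. AGATAA was present in 1 (TCF21) and in 9.40% of all, and CATTCC in 1 (UPK1B) and in 12.0% of all. A T-box motif, GGTGTGA, and a TATA box, TATAAA, were in none of the 7 windows and in 2.73% and 11.2% of all. A match is a description of these letters only.

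TCF21, a helix-loop-helix protein that the cardiac fibroblast lineage of mice needs, was the first of the 4 factors silent or near silent at day 0 to appear. The gene (ENSG00000118526) lies on the plus strand of chromosome 6, between 133889138 and 133895553 on GRCh38, the build of all positions given here. TCF21 had 0 FPKM at days 0 and 2, 0.306 at day 3, 1.61 at day 4, 2.99 at day 6 and 3.68 at day 30. Each day from day 3 on was above the one before it beyond counting error, and the day 30 over day 6 ratio was 1.23 (1.02 to 1.49). That last step is within the choice of scaling, since TCF21 was highest at day 6 and not day 30 when libraries were scaled by total reads or to TPM. Between genes on the same day, TCF21 had 216 times the FPKM of TBX18 at day 4 (interval 38.0 to 8599, on 116 and 1 reads) and 2.81 times at day 30 (2.25 to 3.52).

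BNC1 (ENSG00000169594, chromosome 15, 83255903 to 83284714, minus strand), the basonuclin of mesothelia and of the basal layer of squamous epithelia, was near silent through day 3 and appeared at day 4. Its FPKM was 0.0431 at day 0, 0.0259 at day 2, 0.0727 at day 3, 1.03 at day 4, 7.43 at day 6 and 14.2 at day 30. The first 3 values rest on 3, 2 and 5 reads and do not differ beyond counting error. The next 3 were each above the one before, with ratios of 14.2 (5.82 to 44.8) for day 4 over day 3, 7.22 (5.70 to 9.26) for day 6 over day 4 and 1.92 (1.73 to 2.13) for day 30 over day 6.

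BNC2 (ENSG00000173068, chromosome 9, 16409503 to 16870843, minus strand) encodes the second basonuclin and had a high start, a low middle and a second high level. Its FPKM was 4.71 at day 0, 0.499 at day 2, 0.259 at day 3, 0.339 at day 4, 4.22 at day 6 and 2.68 at day 30. It was 9.44-fold lower at day 2 than at day 0 (7.83 to 11.5), and day 6 was 12.5-fold higher than day 4 (9.95 to 15.8). Days 3 and 4, the 2 lowest, did not differ beyond counting error. Days 0 and 6 stood close, the interval of day 0 over day 6 being 1.02 to 1.21, and day 6 became the higher of the pair under scaling by total reads or to TPM. The longest of the 8 genes at 15323 bases of exon, BNC2 was read 2935 times over all libraries and is the best counted of the set.

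WT1 (ENSG00000184937, chromosome 11, 32387775 to 32435630, minus strand), a zinc finger factor of the epicardium, kidney and gonad, was a late gene. It had 0 reads at days 0 and 2 and 3 reads each at days 3 and 4, which is 0.0509 and 0.0462 FPKM. It reached 0.90 FPKM at day 6 and 14.8 FPKM at day 30. Day 6 was 19.5-fold above day 4 (6.38 to 97.1), and day 30 was 16.5-fold above day 6 (12.8 to 21.6). Day 30 was 295.58-fold above a floor of 3 reads in the day 0 library. From counting, the lower 95% limit of the day 30 over day 0 ratio was 239.8. At day 30 the level of WT1 exceeded that of 83.6% of all protein-coding genes in the table.

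TBX18, which encodes a T-box factor of proepicardium and sinus horn (ENSG00000112837, minus strand of chromosome 6, 84687351 to 84764519), was absent or near absent through day 4, with 0, 2, 1 and 1 reads at days 0, 2, 3 and 4. It had 0.628 FPKM on 92 reads at day 6 and 1.31 FPKM on 137 reads at day 30. Day 6 was 84.1-fold above day 4, with an interval of 14.7 to 3357 that rests on 1 read at day 4. Day 30 over day 6 was 2.08 (1.59 to 2.74).

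**Figure D1:**
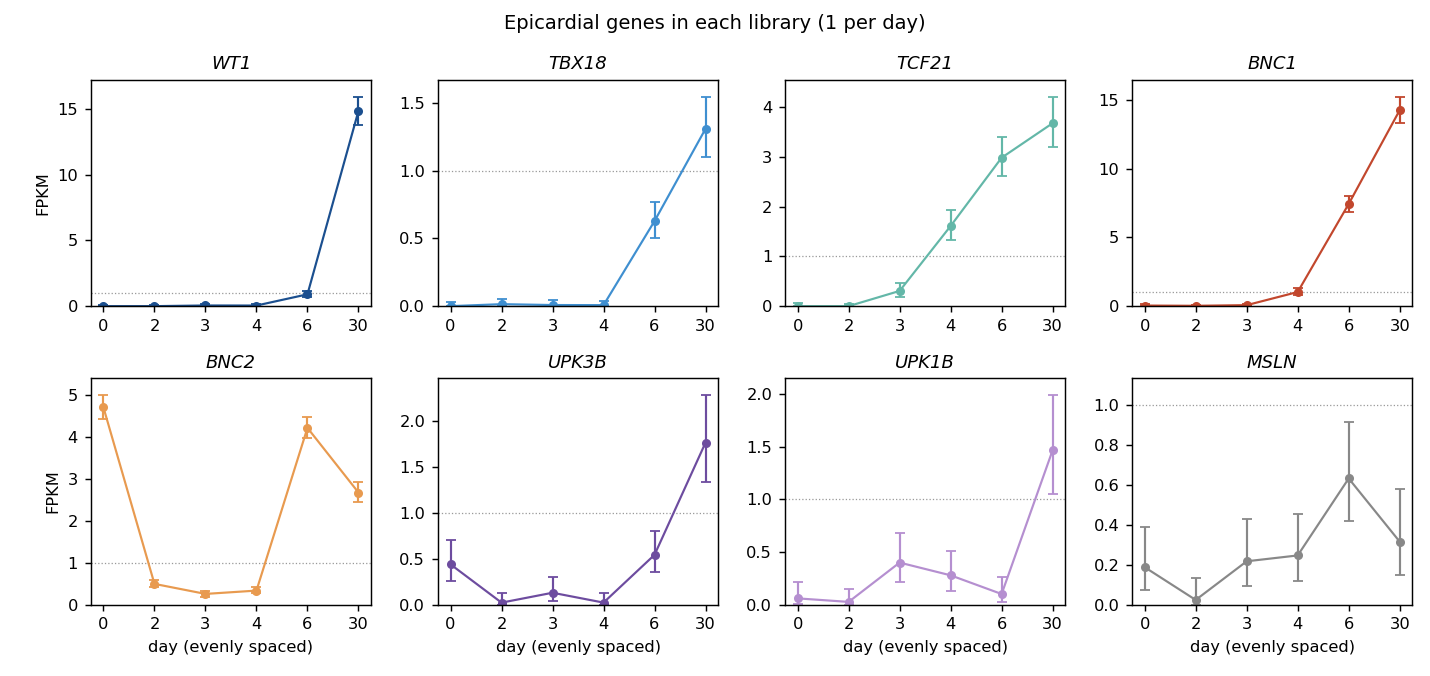
FPKM (vertical axes, from 0, scaled per gene) of the 8 genes in the library of each day (horizontal axes, evenly spaced); points are the values and bars are 95% Poisson intervals, which cover counting error only. TCF21 and BNC1 left the baseline by day 4, TBX18 and WT1 by day 6, BNC2 was high at days 0, 6 and 30, and the dotted line marks 1 FPKM, which MSLN reached in no library.

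The 3 surface protein genes stayed low throughout. UPK3B (ENSG00000243566, chromosome 7, 76510428 to 76516521, plus strand), a uroplakin of urothelium and mesothelium, had 0.440 FPKM at day 0, 0.0233 at day 2, 0.131 at day 3, 0.0238 at day 4, 0.544 at day 6 and 1.76 at day 30. The day 30 value rests on 58 reads and was 3.25-fold above day 6 (2.00 to 5.42). Days 0 and 6 did not differ beyond counting error.

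UPK1B (ENSG00000114638, chromosome 3, 119173517 to 119205153, plus strand), a tetraspanin that pairs with UPK3 proteins in urothelium, had 0.0607 FPKM at day 0, 0.0274 at day 2, 0.40 at day 3, 0.279 at day 4, 0.102 at day 6 and 1.46 at day 30. With 41 reads, day 30 was 14.3-fold above day 6 (5.19 to 55.1), where it had 4 reads, and it was also above day 3, its next highest day with 13 reads (interval 1.92 to 7.45). MSLN (ENSG00000102854, chromosome 16, 760762 to 768865, plus strand), which encodes the mesothelial surface protein mesothelin, had 0.188, 0.0243, 0.218, 0.247, 0.633 and 0.316 FPKM from day 0 to day 30. No pair of neighbours in its order of days differed beyond counting error, and its highest count was 28 reads, at day 6.

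**Figure D2:**
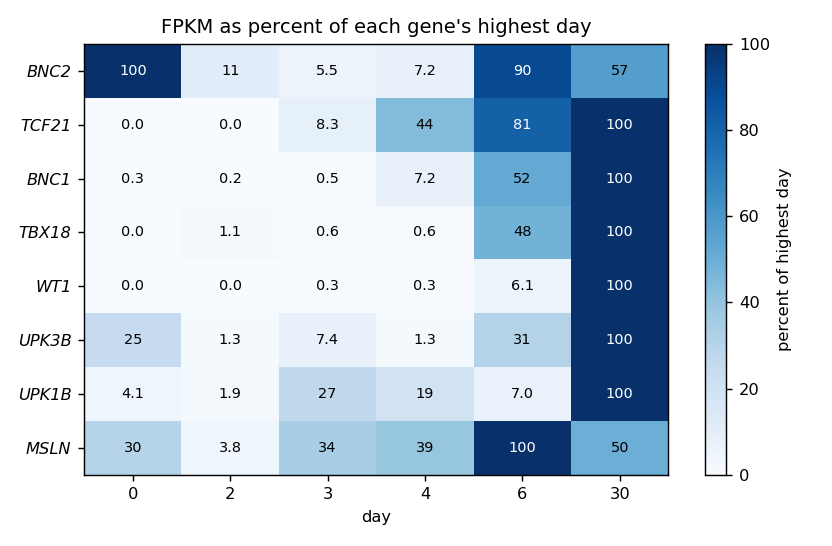
FPKM of each gene (rows) at each day (columns) as a percent of that gene's highest day, with the percent written in each cell. At day 6 WT1 was at 6.07% of its day 30 level while TCF21 was at 81.1% and BNC1 at 52.2% of theirs.

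Of the 7 genes that reached 1 FPKM on some day, 6 had their highest level at day 30 as deposited, and BNC2 had it at day 0. Of all 20481 genes that reached 1 FPKM on some day, 31.9% were highest at day 30 and 21.5% at day 0. Under scaling by total reads or to TPM the count was 5 of 7, with TCF21 and BNC2 highest at day 6. The share of all genes under these scalings is not given here. The first day at 1 FPKM or more was day 0 for BNC2, day 4 for TCF21 and BNC1, and day 30 for WT1, TBX18, UPK3B and UPK1B. WT1, TBX18, UPK3B and UPK1B thus passed the filter only through day 30, which fixes their highest day. The counts above are no more than a description.

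The summed FPKM of the 8 genes was 5.44 at day 0, 0.614 at day 2, 1.45 at day 3, 3.58 at day 4, 17.4 at day 6 and 40.3 at day 30. BNC2 made up 86.5% of this sum at day 0. TCF21 made up 45.0% at day 4 and BNC1 42.6% at day 6. At day 30 WT1 made up 36.8% and BNC1 35.4%, and the 3 surface genes together had 3.55 FPKM of the 40.3.

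**Figure D3:**
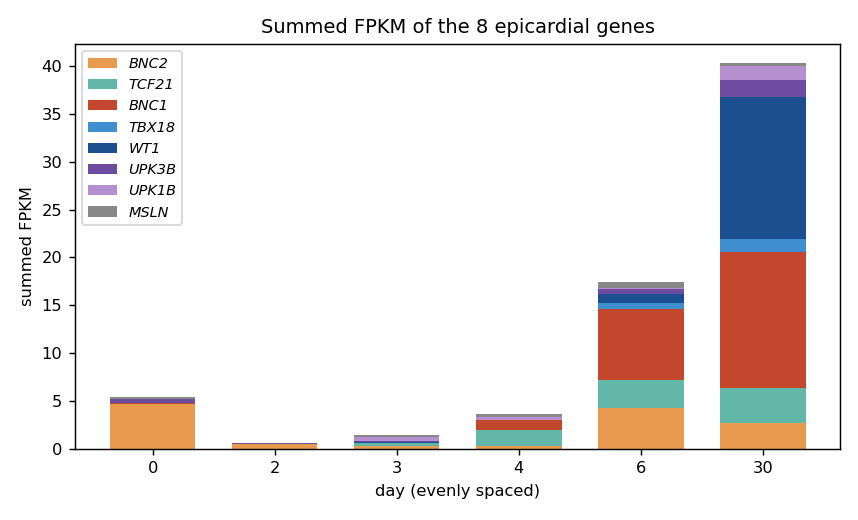
Summed FPKM of the 8 genes (vertical axis, from 0) in the library of each day (horizontal axis, evenly spaced), with 1 colour per gene. The sum was 5.44 FPKM at day 0, mostly BNC2, and 40.3 FPKM at day 30, mostly WT1 and BNC1.

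The order of the genes changed between days 6 and 30. At day 30 WT1 and BNC1 led and did not differ beyond counting error (WT1 over BNC1 1.04, 0.943 to 1.15), with TCF21, BNC2 and then UPK3B, UPK1B and TBX18 behind them. UPK3B, UPK1B and TBX18 were next to each other in that order and their neighbouring pairs did not differ beyond counting error, and MSLN was below all others. At day 6 BNC1 led, BNC2 and TCF21 followed, and the neighbouring pairs among WT1, MSLN, TBX18 and UPK3B did not differ beyond counting error. BNC1 had 8.26 times the FPKM of WT1 at day 6 (6.37 to 10.9) and 0.960 times at day 30 (0.869 to 1.06). WT1 had 0.301 times the FPKM of TCF21 at day 6 (0.225 to 0.399) and 4.03 times at day 30 (3.45 to 4.72).

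Steps between libraries were compared on log2(FPKM + 1), which understates the change of low genes, and a gene was called at a difference of at least 1 where it had at least 1 FPKM in either library. Where a gene had under 1 FPKM in 1 of the 2 libraries, this filter itself sets the direction of its difference. For day 2 against day 0, BNC2 was the 1 measured gene of the set and fell by 1.93, where 7.75% of 16019 genes were called lower and 8.78% higher. For day 3 against day 2 no member reached 1 FPKM and none was called, where 7.13% of 16149 genes were called higher and 4.98% lower. For day 4 against day 3, TCF21 rose by 1.0, just at the threshold, and BNC1 had 0.92, among 2 measured members, where 4.23% of 16376 genes were called higher and 3.59% lower.

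For day 6 against day 4, BNC1 (2.05) and BNC2 (1.96) rose among 3 measured members, and TCF21 had 0.61. Of 16727 genes, 5.51% were called higher and 6.71% lower at this step. The median difference of all 8 members was 0.65, and that of all genes with at least 1 FPKM on either day was -0.01. For day 30 against day 6, WT1 (3.06) and UPK1B (1.16) rose among 7 measured members, where 21.0% of 18023 genes were called higher and 15.3% lower. WT1, UPK1B, UPK3B and TBX18 were under 1 FPKM at day 6 and were measured only through day 30. BNC1 had 0.85, UPK3B 0.84, TBX18 0.50, TCF21 0.23 and BNC2 -0.51, and the TCF21 value changed sign under scaling by total reads (-0.11). The median of the 8 was 0.67, and that of the 18023 genes was 0.08. UPK1B, on 41 and 4 reads, was not called under scaling by total reads.

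For day 30 against day 0, 5 of 7 measured members rose, namely WT1 (3.99), BNC1 (3.87), TCF21 (2.23), UPK1B (1.22) and TBX18 (1.21), where 25.9% of 17874 genes were called higher and 19.1% lower. UPK3B had 0.94 and BNC2 -0.63. A member silent at day 0 is measured only because it is expressed at day 30, so these counts describe the measured members. MSLN did not reach 1 FPKM and had 0.15.

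Since most of these genes are low, steps were also called on the ratio of FPKM itself, at 2-fold or more with the interval beyond 1 and at least 20 reads in both libraries together, a rule chosen after seeing the data. Genes such as WT1, TBX18 and UPK3B, with 3, 1 and 1 reads at day 4, reach 20 reads only through the later day, so the filter itself sets their direction and the counts below are no more than a description. BNC2 was lower by it for day 2 against day 0, as were 12.3% of 17784 genes. TCF21 was higher for day 3 against day 2, as were 10.8% of 17945 genes. At day 3 TCF21 was 7.48-fold above the floor of 3 reads at day 2, and the lower 95% limit of the day 3 over day 2 ratio was 5.54. TCF21 and BNC1 were higher for day 4 against day 3, as were 6.31% of 18112 genes. For day 6 against day 4, 6 of 7 countable members were higher by this rule, namely WT1, TBX18, BNC1, BNC2, UPK3B and MSLN, where 9.75% of 18717 genes were. MSLN was there 2.56-fold higher (1.21 to 5.91) on 28 against 10 reads. For day 30 against day 6, 4 of 8 were higher, namely WT1, TBX18, UPK3B and UPK1B, where 23.9% of 18908 genes were. For day 30 against day 0, 6 of 7 were higher, namely WT1, TBX18, TCF21, BNC1, UPK3B and UPK1B, where 30.0% of 18339 genes were. BNC2 was the 1 member lower by this rule at any step. UPK3B was 18.8-fold lower at day 2 than at day 0 (2.95 to 787), but with 1 and 17 reads it fell short of the 20 reads.

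**Figure D4:**
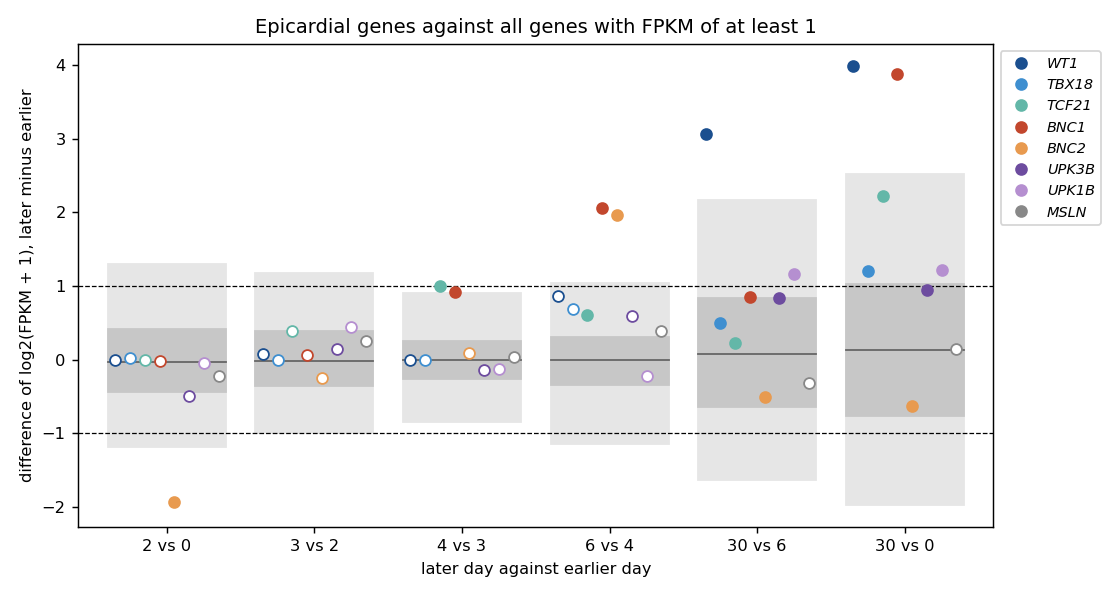
Difference of log2(FPKM + 1), later minus earlier day (vertical axis), for each of 6 comparisons (horizontal axis); filled points have at least 1 FPKM in either library and open points do not. Grey boxes hold the central 50% and 90% of all genes with at least 1 FPKM, lines in them are the medians, and dashed lines mark the call at 1 and -1; BNC1 and BNC2 lie above the box at day 6 against day 4, and WT1 does at day 30 against day 6.

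Other genes of epicardium and mesothelium, a list of 17, split at day 30 against day 6. Of 13 measured, 4 were higher and 5 lower, with a median of -0.60 over the list. The counts were 4 higher and 7 lower of 13 measured under scaling by total reads, and 7 higher and 8 lower of 17 measured under TPM scaling. TPM values are larger than FPKM, so more genes pass the same minimum of 1 there. The complement component C3 had 105 FPKM at day 30 and 4.17 FPKM at day 6, and the mucin-type glycoprotein PDPN had 66.6 and 3.68 FPKM. The endocytic receptor LRP2 fell to 1.92 FPKM at day 30, against 18.7 FPKM at day 6, and SBSPON to 0.923 FPKM, against 9.26 FPKM. LRRN4 and CALB2, both mesothelial markers and named after their values were seen, were lower at day 30 as well, LRRN4 with 26.2 FPKM at day 30 and 56.8 FPKM at day 6, and CALB2 with 1.71 and 5.03 FPKM. ALDH1A1 was called higher, with 4.69 FPKM at day 30 and 0.386 FPKM at day 6, as was RSPO1, with 2.31 and 0.356 FPKM. Under 1 FPKM on both days, MUC16 had 0.938 FPKM at day 30 and 0.0502 at day 6, and PRG4 had 0.722 and 0.0459 FPKM. The retinaldehyde dehydrogenase ALDH1A2, also under 1 FPKM, was higher at day 30 beyond counting error, at 0.929 and 0.221 FPKM. GPM6A, under 1 FPKM as well, was lower at day 30, with 0.0690 and 0.624 FPKM. All of these were likewise named after their values were seen.

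Genes of the epithelial-to-mesenchymal transition, of fibroblasts and of mural cells were mostly higher at day 30 than at day 6. Of 18023 genes, 21.0% were called higher and 15.3% lower at this step. Whether such cells arose from epicardium here was not tested. Of 7 transition factors, all measured, 5 were higher at day 30 than at day 6 and none lower (median 2.00). TWIST1 had 120.5 FPKM at day 30 and 16.2 FPKM at day 6, TWIST2 had 8.10 and 0.370 FPKM, and SNAI2 had 29.2 and 5.90 FPKM. Of 13 fibroblast genes, 7 of 11 measured were higher and none lower (median over the list 1.30). The matrix proteins POSTN, with 132 FPKM at day 30 and 0.254 FPKM at day 6, and DCN, with 39.7 and 0.0630 FPKM, had the largest differences of the list. Of 9 mural genes found under a unique symbol, 7 of 8 measured were higher and none lower (median 1.68). The receptor PDGFRB had 182 FPKM at day 30 and 15.2 FPKM at day 6, and TAGLN had 27.2 and 4.36 FPKM. Under scaling by total reads 5 transition factors, 6 fibroblast genes and 7 mural genes were higher and 1, 1 and 0 were lower. Under TPM scaling, with 7, 12 and 8 measured, 5, 7 and 7 were higher and 1, 1 and 0 lower.

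The embryonic epicardium makes retinoic acid. Of 11 genes that make, carry or degrade it, 4 of 10 measured were higher and 3 lower at day 30 against day 6, and 3 and 3 under scaling by total reads. The reductase DHRS3 had 25.3 FPKM at day 30 and 2.57 FPKM at day 6. The degrading enzyme CYP26B1 had 2.81 FPKM at day 30 and 0.138 FPKM at day 6. Its relative CYP26A1 had 0 FPKM at day 30 and 2.49 FPKM at day 6, and the binding protein CRABP1 had 0.734 and 7.63 FPKM.

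**Figure D5:**
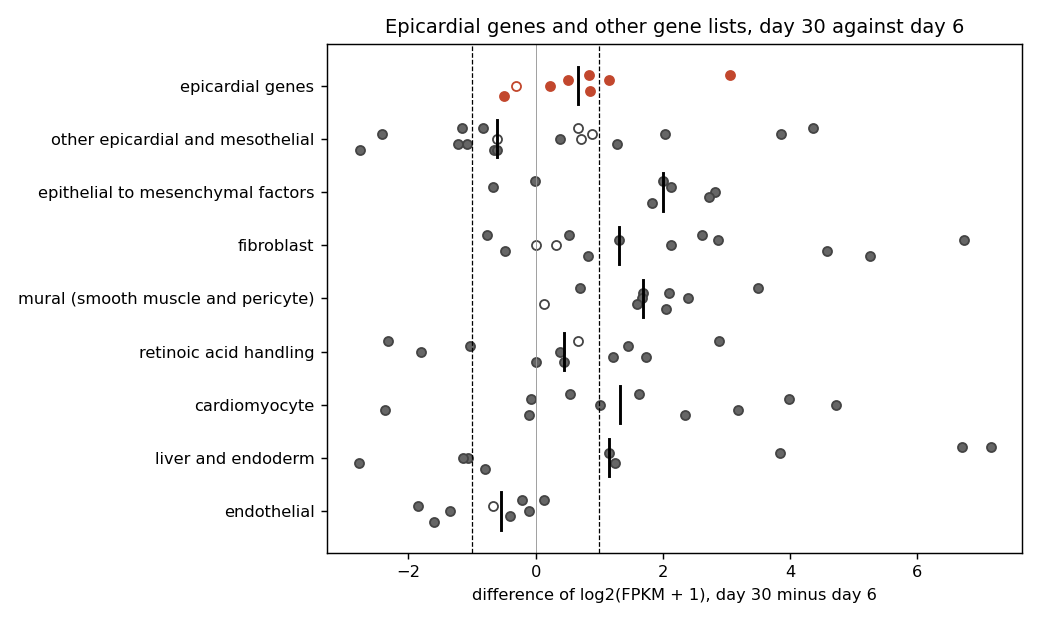
Difference of log2(FPKM + 1), day 30 minus day 6 (horizontal axis), for the 8 epicardial genes and 8 other lists (rows); filled points have at least 1 FPKM on either day, black bars are the medians over each list, and dashed lines mark 1 and -1. The transition, fibroblast and mural lists have medians of 2.00, 1.30 and 1.68, the other epicardial and mesothelial list -0.60.

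Other cell types that use these genes were checked by their markers. Of the 10 kidney and podocyte genes, 5 were measured, of which 3 were higher and 1 lower at day 30 against day 6. Of 18023 genes, 21.0% were called higher and 15.3% lower at this step, which applies to the lists below as well. The summed level of the 10 genes was 48.0 FPKM at day 30 and 272 FPKM at day 6. SYNPO had 26.4 FPKM at day 30 and 0.806 FPKM at day 6, and PODXL had 16.9 and 269.6 FPKM. The day 6 sum was thus mostly PODXL, which was already at 136.9 FPKM at day 0, and the day 30 sum was mostly SYNPO and PODXL. EYA1 had 1.99 FPKM at day 30 and 0.178 FPKM at day 6, and OSR1 had 1.6 and 0.240 FPKM. PAX8 and SIX2 were at 0 at day 30. NPHS1 went the other way and was 7.64-fold higher at day 30 than at day 6, on 71 and 13 reads. That step was beyond counting error, but NPHS1 was not called. Under scaling by total reads 2 of 4 measured kidney genes were higher and 1 lower, and under TPM scaling 4 and 3 of 7 measured. The 7 gonadal genes summed to 37.7 FPKM at day 30 and 26.7 FPKM at day 6. Of 5 measured, 2 were higher and 1 lower as deposited, and 1 and 3 of 5 under scaling by total reads. Under TPM scaling the counts were 3 and 3 of 6 measured. SOX9, also a gene of cartilage and endoderm, had 19.4 FPKM at day 30 and 0.985 FPKM at day 6, and FSHR had 0.0766 and 2.5 FPKM. Their part in the WT1 level was not tested.

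Urothelial and squamous genes, a list of 8, summed to 31.0 FPKM at day 30 and 3.79 FPKM at day 6. Of 4 measured, 2 were higher and none lower. KRT20, also a gut keratin, had 25.4 FPKM at day 30 and 0 at day 6, and KRT5 had 1.30 and 0 FPKM. KRT14 was at 0 at day 30. Of 8 somite genes, 3 were measured, none was higher and 1 was lower, UNCX with 0 FPKM at day 30 and 1.53 FPKM at day 6. TCF15 had 0.156 and 1.0 FPKM. Liver and endoderm genes, a list of 9, summed to 724 FPKM at day 30, 430.1 at day 6 and 0.239 at day 0, and AFP had 299 FPKM at day 30 and 1.10 FPKM at day 6. SERPINA1 had 114 FPKM at day 30 and 0.106 FPKM at day 6. Of these 9 genes 5 were higher and 3 lower as deposited, and 3 higher and 4 lower under either other scaling. The part of these cell types in the levels of the uroplakins, BNC1, MSLN, TBX18 and WT1 was not tested.

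Cardiomyocyte genes, a list of 10, summed to 225 FPKM at day 30 and 367 FPKM at day 6, with 6 higher and 1 lower. The 1 lower gene was MYL7, with 64.0 FPKM at day 30 and 335.8 FPKM at day 6, which was most of the day 6 sum. Of 6 pluripotency genes, the 4 measured were lower, among them LIN28A with 0.626 FPKM at day 30 and 275 FPKM at day 6, and TDGF1 with 0.781 and 24.4 FPKM. MYH7 had 28.9 FPKM at day 30 and 0.133 FPKM at day 6, and MYH6 had 69.0 and 3.43 FPKM, and reads of this similar pair may have been shared. Of 8 endothelial genes, 7 were measured, none was higher and 3 were lower, as also under scaling by total reads. CDH5 had 0.319 FPKM at day 30 and 3.76 FPKM at day 6, and VWF had 0.491 and 3.50 FPKM.

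The antisense genes that overlap members were mostly near silent, but the counting is not stated to use strand. WT1-AS, which shares a start region of 113 bases with WT1 on the opposite strand, had 0 FPKM at days 0, 2 and 3, 0.0569 at day 4, 0.0936 at day 6 and 3.00 at day 30, on 206 reads. TARID, which overlaps TCF21 on the opposite strand, had at most 26 reads in a library. The antisense genes over TBX18, BNC1 and BNC2 had at most 8 reads each in a library. On the same strand, the protein-coding gene AC083800.1 overlaps the span of UPK1B by 14291 bases, and C9orf92 that of BNC2 by 1488 bases. Both had 0 reads in every library. Whether reads of members were lost at such overlaps was not tested.

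The protein-coding genes with the most similar course to each member over the 6 days were ranked by Pearson r of log2(FPKM + 1) among 13871 genes, which describes 6 libraries only. For WT1 they were ANXA8 (0.99988), whose reads may be shared with a near-identical copy, PTGIR (0.99985) and APOC3 (0.99968), and 90 genes had an r of at least 0.99. For TBX18 they were MSRB3 (0.9996), ZFPM2 (0.9994), a GATA cofactor, and STX11 (0.9993), with 34 such genes. For TCF21 they were the T-box factor TBX2 (0.998), SCTR (0.997) and the heart mesoderm factor HAND2 (0.996), with 8 such genes. For BNC1 they were ADGRA2 (0.998), CHST3 (0.997) and LAPTM5 (0.995), with 7 such genes. For BNC2, with no gene at 0.99, they were TFDP2 (0.984), EPHA7 (0.983) and NAP1L5 (0.983).

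For UPK3B the nearest genes were CYLD (0.995), SPPL3 (0.993) and FHOD3 (0.992), and for UPK1B they were TBC1D17 (0.994), KHNYN (0.994) and ADGRG1 (0.994). Among the members themselves the r was highest for TBX18 with BNC1 (0.965), TCF21 with BNC1 (0.946) and WT1 with TBX18 (0.942), and lowest for BNC2 with UPK1B (0.0305).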

How the data were processed

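RNA was measured in 6 libraries of H9 cells, 1 per time point. In the table that the authors deposited, values are in FPKM, that is, reads over gene length and over a denominator of the library. The submitters' processing notes name CASAVA, HISAT2 and featureCounts 1.5.0-p3, while settings, genome build and strand use remain not given in the sources used here. Starts, ends and strands of all 58735 rows equal those of GENCODE release 29 on GRCh38.

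Reads were recovered from the products of FPKM and length, which gave whole numbers (to 0.001 read) for 100% of values above 0. The denominators were 0.826 (day 30) to 1.12 (day 6) times the read totals. Differences use log2(FPKM + 1), with 1 as pseudocount. Levels have exact Poisson and ratios exact conditional binomial 95% intervals. Reads are not molecules, so these may be too narrow, and they leave out the scaling. A fold against 0 reads uses a floor of 3 reads in that library. The calls were also run on simulated reads that held counting error only. Changes were planted above a level that low members such as TBX18 and UPK1B did not reach, so their calls were not covered. No test across samples was possible with 1 library per day.

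The members, the 16 gene lists and the comparisons were chosen with earlier results of these data known. Named genes are the 8 members, genes that overlap them, the 2 to 4 genes of a list with the largest difference at day 30 against day 6, and the 3 protein-coding genes most alike in course. Other genes, such as PAX8, SIX2, KRT14, EYA1, OSR1, LRRN4, CALB2, ALDH1A2 and MYL7, were named after their values were seen. NPHS1, ALDH1A1, RSPO1, MUC16, PRG4 and GPM6A were named in the same way. RGS5 was left out of the mural list, since its symbol had 2 rows. List counts under other scalings were added after seeing the data and have no share over all genes beside them. The level of 1 list gene is not reported here. Promoters come from RefSeq. Alternatives were another pseudocount, FPKM minimum, scaling and call rule. Python 3.11.15, numpy 2.4.6, pandas 2.3.3, scipy 1.17.1 and matplotlib 3.10.9 were used.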

Additional observations from a re-analysis of the deposited data

How the results depend on the processing

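The number of members called changed with most settings, and which part of a setting did so was not tested. As reported it was 1 (day 2 against 0), 0 (day 3 against 2), 1 (day 4 against 3), 2 (day 6 against 4), 2 (day 30 against 6) and 5 (day 30 against 0). A pseudocount of 0.1 gave 2 for day 4 against 3, 3 for day 30 against 6 and 6 for day 30 against 0. An FPKM minimum of 5 gave 0 for day 2 against 0, 0 for day 4 against 3, 1 for day 6 against 4, 1 for day 30 against 6 and 2 for day 30 against 0. A difference of at least 2 gave 0, 0, 1, 1 and 3 for the same comparisons. TPM scaling gave 2 for each of the first 3 comparisons, 5 for day 6 against 4, 3 for day 30 against 6 and 6 for day 30 against 0. TPM values were larger than FPKM and were not brought to its level, so the minimum and pseudocount of 1 were laxer there. For day 30 against day 0, WT1, with 0 reads at day 0, differed by 5.76 in TPM and 3.99 as deposited. Counts under TPM scaling thus mix the scaling with a laxer rule. Scaling by total reads left 1, WT1, for day 30 against 6, where it moved the median of all measured genes by -0.36 and TPM scaling did by -0.28. The ratio rule, chosen after seeing the data, gave 1 for day 3 against 2, 2 for day 4 against 3, 6 for day 6 against 4, 4 for day 30 against 6 and 6 for day 30 against 0. Shares over all genes are given only for the reported setting and the ratio rule, so counts under the other settings are no more than a description. No minimum, and an interval that excludes 1, left every count within 1.5 times. No called difference of a member changed sign under the other pseudocount or scalings. No paired analysis was possible because each day has 1 library. UPK3B, UPK1B and MSLN had at most 58 reads in a library, which limits their ratios.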

Other observations

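The close relatives of the members, several of them named after their values were seen, had these levels. At day 30 against day 6, 1 of 5 measured uroplakins was higher (UPK1B) and none lower, and none of 3 measured T-box relatives or 2 measured relatives of TCF21 was called, the members included. Of the uroplakins, UPK1A, the tetraspanin relative of UPK1B, was the highest from day 0 to day 4, with 7.0 FPKM at day 0, 6.00 at day 2, 9.85 at day 3, 3.47 at day 4, 1.19 at day 6 and 0.296 at day 30, where UPK1B was at 1.46. UPK3A was at 2.16 FPKM at day 30, within the counting interval of UPK3B (1.34 to 2.28 around 1.76 FPKM), and at 2.97 FPKM at day 6. UPK2 was at 1.10 and 0.366 FPKM, and UPK3BL1 was listed at 0 in every library, where reads of this similar gene may have been lost.

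Among the T-box factors closest to TBX18, TBX20 was the most abundant from day 3 on, with 25.9 FPKM at day 30 and 19.0 FPKM at day 6, against 1.31 and 0.628 FPKM of TBX18. TBX15 was highest at day 0 with 1.09 FPKM, and TBX1 stood at 0.0452 FPKM at day 30. Among the factors closest to TCF21, TCF15 was highest at day 2 with 3.20 FPKM, where TCF21 had 0 reads. MSC was at 0.728 FPKM at day 30 and 0 at day 6, and TCF23 was listed at 0 in every library.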
